A study of Mus musculus with 34 samples.

Results

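The genes described here are 10 members of the heterogeneous nuclear ribonucleoprotein (hnRNP) family, *Hnrnpa0*, *Hnrnpa1*, *Hnrnpa2b1*, *Hnrnpc*, *Hnrnpd*, *Hnrnpf*, *Hnrnph1*, *Hnrnpl*, *Hnrnpm* and *Hnrnpu*. They were taken by name from the 22040 genes of the mRNA-seq table, and all 10 were found and passed the filter on low values. *Hnrnpk*, itself an hnRNP gene, was the gene deleted in this study, and the question was whether transcripts of its relatives differed in its absence. Limb bud cells at E11.5 (embryonic day) of *Prrx1-Cre;Hnrnpk fl/fl* mouse embryos (conditional knockout, CKO) were compared with WT limb bud cells, which the labels give as Hnrnpk WT, with 3 libraries in each group. The floxed allele carries loxP sites around exons 4 to 7 of *Hnrnpk*, and *Prrx1-Cre* recombines it in limb bud mesenchyme and calvarium, so limb ectoderm, endothelium and blood of a CKO limb bud are not its target. The other 28 samples of the series were not analysed here.

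hnRNP proteins coat nascent pre-mRNA in the nucleus and influence splicing, 3′ end formation, export, stability and translation. They differ in the sequences they bind. hnRNP K binds C-rich RNA and single-stranded DNA through KH domains, whereas most of its relatives bind through RNA recognition motifs. Several family members limit their own or one another's mRNA by promoting isoforms that carry premature stop codons and are removed by nonsense-mediated decay, so the level of a member can depend on that of another.

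None of the 10 genes differed between CKO and WT limb buds past the threshold. *Hnrnph1* and *Hnrnpa1* had their 3 CKO values below their 3 WT values, *Hnrnpu* had its 3 CKO values above, and the other 7 genes overlapped between genotypes. Of all genes tested, 8.86% separated in the lower and 5.63% in the higher direction. Nothing particular to the 10 genes is read from these small counts. On the log2 scale 5 genes had a higher and 5 a lower mean in CKO, with differences (CKO minus WT) from -0.35 to 0.16 and a median of -0.01, beside a median of 0.00 over all 12305 genes tested.

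The upstream sequences of the 3 genes whose groups did not overlap are printed for comparison, since hnRNP K binds C-rich DNA as well as RNA. Each is the RefSeq promoter window of GRCm38.p6, from 250 bases before to 50 after the annotated start, written along the gene's strand. Capitals mark runs of 4 or more C (CCCC) or of 4 or more G (GGGG, the same run on the other strand).
Hnrnpa1, chr15:103240147-103240446, plus strand: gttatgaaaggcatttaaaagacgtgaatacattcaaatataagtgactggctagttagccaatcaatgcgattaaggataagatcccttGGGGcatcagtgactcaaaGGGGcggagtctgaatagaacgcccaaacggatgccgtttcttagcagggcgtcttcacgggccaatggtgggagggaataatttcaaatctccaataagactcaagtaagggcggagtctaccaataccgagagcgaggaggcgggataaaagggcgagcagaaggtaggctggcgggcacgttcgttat
Hnrnph1, chr11:50376740-50377039, plus strand, 1 of 5 windows listed: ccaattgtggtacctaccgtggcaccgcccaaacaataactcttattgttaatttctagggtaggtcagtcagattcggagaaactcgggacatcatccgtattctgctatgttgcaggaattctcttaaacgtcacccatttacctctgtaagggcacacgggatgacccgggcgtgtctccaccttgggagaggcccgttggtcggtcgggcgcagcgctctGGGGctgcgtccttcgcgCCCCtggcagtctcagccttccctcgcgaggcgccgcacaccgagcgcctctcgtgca
Hnrnpu, chr1:178337766-178338065, minus strand: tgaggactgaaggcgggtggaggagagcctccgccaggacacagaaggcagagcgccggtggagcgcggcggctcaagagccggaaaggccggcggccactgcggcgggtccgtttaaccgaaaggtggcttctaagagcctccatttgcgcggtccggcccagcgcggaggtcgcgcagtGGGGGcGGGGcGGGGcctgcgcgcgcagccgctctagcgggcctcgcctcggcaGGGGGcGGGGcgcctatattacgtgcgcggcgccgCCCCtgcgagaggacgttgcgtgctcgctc
These runs took up 8 bases in 2 runs at *Hnrnpa1*, 8 bases in 2 runs at *Hnrnph1* and 26 bases in 6 runs at *Hnrnpu*. All 10 genes matched a RefSeq window, and all 10 windows held at least 1 run, with 4 to 39 bases in runs and a median of 12.5. The start used for the *Hnrnpm* window lay 1402 bases from that of the transcript annotated as principal. Of 32851 mouse promoter windows of the same length, 86.4% held a run and the median was 12 bases. GC content was 48.3% at *Hnrnpa1*, 58.0% at *Hnrnph1* and 72.7% at *Hnrnpu*, and a match to such letters is a description of the window, not a binding site.

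Values are FPKM (mapped fragments per kilobase of exon, scaled by a size set for each library). That size, as recovered, was 19146570 for CKO replicate 2 and 23848048 for CKO replicate 3. In these libraries it was below the recovered reads on listed genes (21190300 and 24624444), and in the others it was above them. The size was therefore not the plain read total, and how it was set was not examined here. The 6 libraries held 17140887 to 24624444 reads on listed genes, as recovered from the steps of the FPKM values, and each of the 10 genes had at least 6985 reads in every library. Counting error was therefore small, and the precision was set by the 3 libraries in each group. Replicate 1 of both genotypes stood apart from replicates 2 and 3 on the first principal component, which held 52.6% of the variance, and genotype separated on the second, with 25.97%. The share of summed FPKM on globin genes ran from 13.7% to 20.6% over the WT libraries and from 11.7% (replicate 1) to 32.4% (replicate 2) over the CKO libraries. All 16 limb mesenchyme markers were detected, at a summed FPKM of 561 to 608 in WT and 493 to 559 in CKO libraries.

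*Hnrnpk* (chromosome 13, 58391142 to 58403343, minus strand, GRCm38) stood at 193, 195 and 185 FPKM in WT replicates 1, 2 and 3 and at 127, 142 and 135 in CKO. The mean of 191 ± 4.996 (SD, n = 3) among WT libraries stood against 135 ± 7.48 (SD, n = 3) among CKO libraries, 29.4% less, and the groups did not overlap. The log2 difference was -0.50 (95% interval -0.80 to -0.21), with a limma p of 0.00448 before and 0.334 after adjustment over all genes, and 0.0575 adjusted with the replicate number as a block. The adjusted p was under 0.05 in 2 of 18 alternatives, at 0.0377 in replicates 2 and 3 alone and 0.0237 with voom on recovered reads and the block. Exons 4 to 7 make up 284 bases, or 4.39% of the 6466 merged exon bases over which the gene's reads were counted. The merged bases join all annotated transcripts, and the transcript on which the exons are numbered has 2980 bases. The FPKM thus reads mostly the transcript outside the deleted exons. The part of the lower CKO value due to the missing exons was not tested. The study reported efficient loss of the protein by western blot and of the mRNA by qPCR in CKO limb buds at this age. Those measures were not analysed here. The libraries are bulk, and fewer cells of a type cannot be told apart from less RNA per cell, for this gene and for the others.

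**Figure D1:**
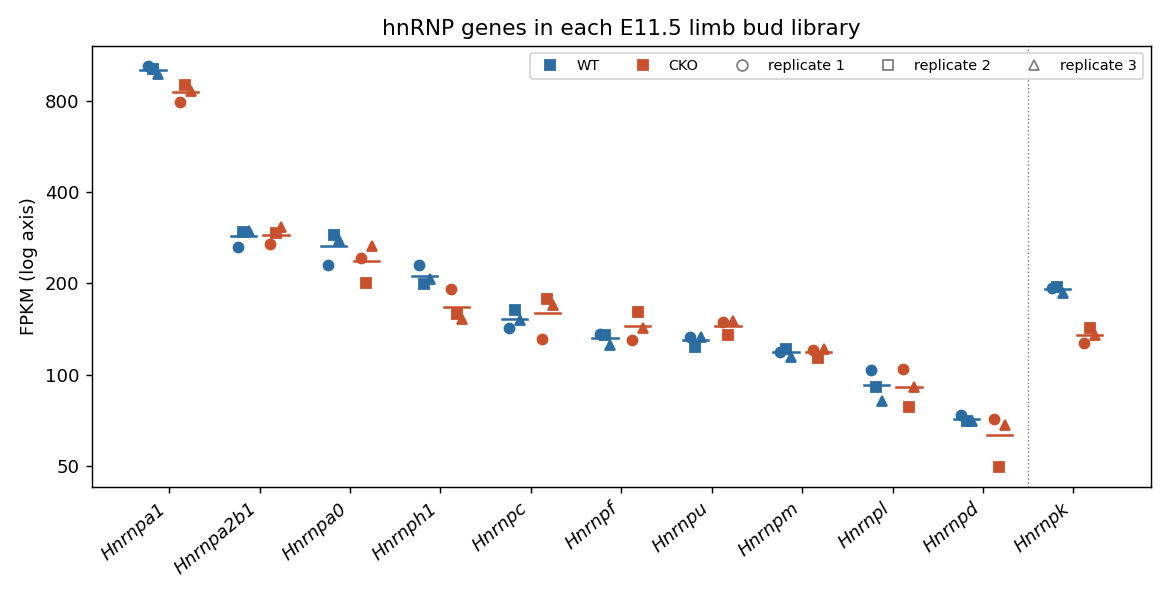
FPKM (log axis) of the 10 hnRNP genes, ordered by WT mean, and of *Hnrnpk* to the right of the dotted line, with 1 symbol for each library, shaped by replicate number, and a bar at each group mean. WT and CKO symbols separate at *Hnrnpa1*, *Hnrnph1*, *Hnrnpu* and *Hnrnpk* and overlap at the other 7 genes.

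All 10 genes were abundant. By mean over the 6 libraries they ranked 24th to 545th of the 12305 genes, above at least 95.6% of them. In WT the order by FPKM, which is per length, was *Hnrnpa1* (1013), *Hnrnpa2b1* (286), *Hnrnpa0* (265), *Hnrnph1* (212), *Hnrnpc* (152), *Hnrnpf* (132), *Hnrnpu* (130), *Hnrnpm* (118), *Hnrnpl* (92.2) and *Hnrnpd* (71.4), a 14.2-fold range. Of the 9 neighbouring pairs in this order, 2 overlapped among the WT libraries, *Hnrnpa2b1* with *Hnrnpa0* and *Hnrnpf* with *Hnrnpu*. The CKO order differed only in that *Hnrnpu* and *Hnrnpf* changed places. *Hnrnpk* itself, at 191 in WT, lay between *Hnrnph1* and *Hnrnpc* there, and its CKO mean of 135 lay below *Hnrnpf* and *Hnrnpu*.

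The A/B group comprises proteins with a pair of RNA recognition motifs and a glycine-rich tail. *Hnrnpa1* encodes the best known of them, which binds UAG-containing sites and commonly promotes exon skipping. *Hnrnpa1* (ENSMUSG00000046434, chromosome 15, 103240432 to 103246692, plus strand) measured 1041, 1017 and 981 FPKM in WT replicates 1 to 3 and 793, 900 and 861 in CKO replicates 1 to 3. The CKO libraries were all below the WT libraries, with CKO replicate 1 the lowest, at means of 1013 ± 30.3 and 851 ± 54.3 (SD, n = 3 each). The log2 difference was -0.25 ± 0.18 (SE; 95% interval -0.68 to 0.18; limma adjusted p = 0.792). Of the 100-base windows within its exons, 37.4% recur elsewhere in the genome, so reads may be shared with copies or lost, and the value is uncertain to that extent. The difference was -0.46 after quantile normalization and -0.36 after rescaling without globin genes, where the median of all genes was -0.10, and its adjusted p was at least 0.334 over the 18 alternatives.

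*Hnrnpa2b1* encodes hnRNP A2 and B1, which also carry mRNAs and microRNAs to particular places in the cell. It measured 263, 296 and 298 FPKM in WT and 269, 292 and 306 in CKO. The 2 groups covered nearly the same range, with a log2 difference of 0.02 (95% interval -0.33 to 0.36). *Hnrnpa0*, an intronless gene whose product binds AU-rich elements in mRNA, measured 229, 289 and 277 in WT and 243, 200 and 265 in CKO. Only CKO replicate 2 lay below the WT libraries. The log2 difference of -0.17 (95% interval -0.57 to 0.23) became -0.06 without that library, -0.10 without WT replicate 2 and -0.27 without WT replicate 1. It was -0.29 after quantile normalization and -0.28 after rescaling without globin genes.

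*Hnrnpc* encodes the hnRNP C proteins, which bind uridine tracts, package nascent transcripts and keep cryptic exons from being spliced in. It measured 142, 163 and 151 FPKM in WT and 131, 178 and 169 in CKO. Of its exon windows 13.3% recur elsewhere in the genome, and its level is uncertain to that extent. CKO replicate 1 was the lowest of the 6 libraries and CKO replicates 2 and 3 the highest, for a log2 difference of 0.06 (95% interval -0.32 to 0.43). *Hnrnpd* encodes AUF1, which binds AU-rich elements and regulates mRNA decay. It measured 73.7, 70.1 and 70.3 in WT and 71.4, 49.6 and 68.2 in CKO. Replicates 1 and 3 differed little between genotypes, and CKO replicate 2 alone was low, so that the log2 difference of -0.20 (95% interval -0.57 to 0.18) became -0.03 without it and -0.29 without CKO replicate 1.

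hnRNP F and H are close relatives that bind G-runs through a variant type of RNA recognition motif. *Hnrnph1* (ENSMUSG00000007850, chromosome 11, 50376990 to 50386528, plus strand) measured 229, 199 and 207 FPKM in WT and 191, 159 and 152 in CKO. All CKO libraries were below all WT libraries, at means of 212 ± 15.5 and 167 ± 20.7 (SD, n = 3 each). The log2 differences within the replicate numbers were -0.26, -0.33 and -0.45, and their shared direction follows from that separation. The log2 difference of -0.35 ± 0.15 (SE; 95% interval -0.70 to 0.00) was the largest of the 10 and did not pass, with a limma p of 0.0524 and an adjusted p of 0.601. With the replicate number as a block the p was 0.0242 and the adjusted p 0.194, and over the 18 alternatives the adjusted p was at least 0.0813. Of its exon windows 2.04% recur elsewhere.

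*Hnrnpf* measured 136, 135 and 125 FPKM in WT and 130, 160 and 143 in CKO, with CKO replicates 2 and 3 above all WT libraries and CKO replicate 1 among them. The log2 difference was 0.12 (95% interval -0.20 to 0.44). It became 0.04 without CKO replicate 2, 0.20 without CKO replicate 1 and 0.22 in replicates 2 and 3 alone, and was 0.01 after quantile normalization and 0.02 after rescaling without globin genes. Because 63.7% of its exon windows recur elsewhere and 806 of its exon bases lie opposite other genes, its level is uncertain. The *Hnrnph1* to *Hnrnpf* ratio, which does not depend on library scaling, was 1.68, 1.48 and 1.66 in WT and 1.47, 0.989 and 1.07 in CKO. The ratio was thus lower in every CKO library, with CKO replicate 1 just below WT replicate 2. This pair was set side by side after the values had been seen, and the ratio was not tested.

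*Hnrnpl* encodes a protein that binds CA repeats and CA-rich elements in splicing. It measured 104, 91.1 and 81.8 FPKM in WT and 105, 78.2 and 90.8 in CKO, a log2 difference of -0.02 (95% interval -0.39 to 0.35). Replicate 1 was the highest in both genotypes. *Hnrnpm* encodes a GU-rich binding splicing regulator, and measured 118, 122 and 115 in WT and 121, 113 and 122 in CKO. It varied least of the 10 in CKO, with a coefficient of variation of 3.87%, and its log2 difference was 0.00 (95% interval -0.27 to 0.28). Of its exon bases 1169 are shared on the same strand with *March2*.

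*Hnrnpu* encodes SAF-A, a large nuclear protein that binds RNA and scaffold-attached DNA and organises chromatin. *Hnrnpu* (ENSMUSG00000039630, chromosome 1, 178321108 to 178337797, minus strand) measured 133, 123 and 133 FPKM in WT and 149, 135 and 150 in CKO. Every CKO library was above every WT library, by 1.85 FPKM at the closest, at means of 130 ± 5.71 and 145 ± 8.39 (SD, n = 3 each). The log2 differences within the replicate numbers were 0.16, 0.14 and 0.18, and their shared direction follows from that separation. The log2 difference of 0.16 ± 0.13 (SE; 95% interval -0.13 to 0.45) did not pass, with a limma adjusted p of 0.812, or 0.521 with the block. It was 0.06 after quantile normalization and 0.05 after rescaling without globin genes. None of its exon windows recur elsewhere, and 804 exon bases lie opposite *Cox20*.

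**Figure D2:**
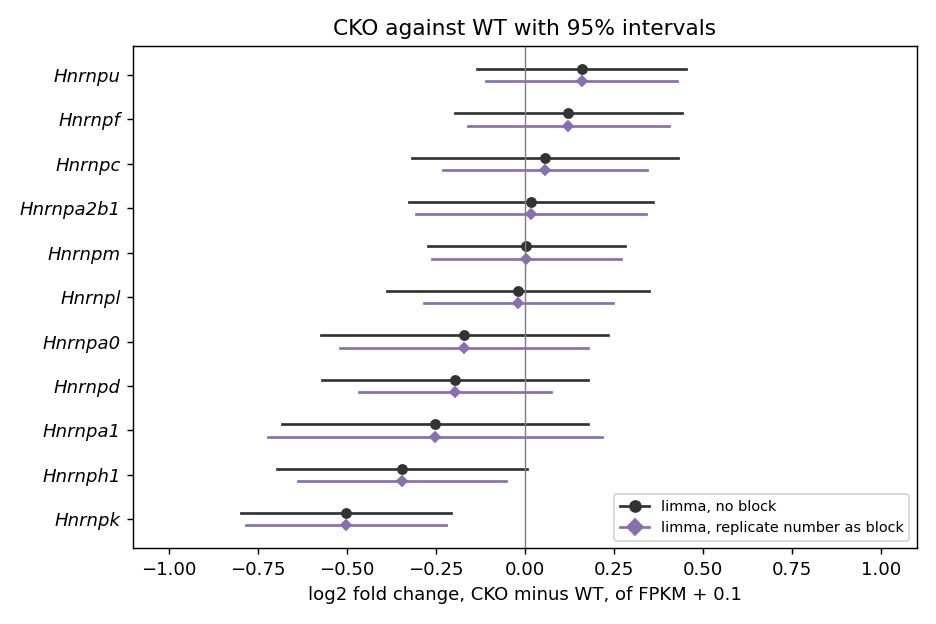
Log2 fold change (CKO minus WT, of FPKM + 0.1) of the 10 hnRNP genes and *Hnrnpk*, with 95% intervals from limma, without a block (circles) and with the replicate number as a block (diamonds). The unblocked intervals of all 10 genes cross 0 and lie between -0.70 and 0.45, and that of *Hnrnpk* lies below 0.

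Counted together, 0 of the 10 genes passed an adjusted p of 0.05 in limma, against 0.0650% of all genes tested (8 genes). At an unadjusted p under 0.05 the count was 0 lower and 0 higher, beside 5.46% and 2.84% of all genes. With the replicate block, where 1.68% of all genes were called lower and 1.13% higher, again 0 of the 10 passed, and 1, *Hnrnph1*, had an unadjusted p under 0.05. limma's voom on the recovered reads gave 0 after adjustment and 1, *Hnrnph1*, before. Values of WT and CKO did not overlap for 2 of 10 genes in the lower direction and 1 of 10 in the higher, where 8.86% and 5.63% of all genes did so, and nothing particular to the 10 is read from such small counts. All 10 intervals lay within 1 log2 unit of 0, from 0.618-fold to 1.37-fold, so a 2-fold change in either direction was outside the 95% interval of each. The interval of *Hnrnpk*, the deleted gene, lay within the same bound. The bound concerns the bulk level alone and does not exclude smaller changes. The design allows no exact permutation p below 0.1 for a single gene.

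The summed FPKM of the 10 genes was 2470, 2505 and 2439 in WT and 2202, 2265 and 2327 in CKO, a mean difference of -206 FPKM. Most of the difference in the sum came from *Hnrnpa1*, without which the sums were 1429, 1488 and 1458 in WT and 1410, 1365 and 1466 in CKO and overlapped. As a share of the summed 10, *Hnrnpa1* took 42.1%, 40.6% and 40.2% in WT and 36.0%, 39.7% and 37.0% in CKO. The shares of *Hnrnpf*, *Hnrnpm* and *Hnrnpu* were higher in every CKO than in every WT library, and those of the other 6 overlapped. For *Hnrnpm*, whose FPKM did not differ, the higher share follows from the smaller sum. *Hnrnpf* also overlapped in FPKM, and the smaller sum raises its share too. How often other genes would separate in this way was not computed. No combined rise of the 10 was seen beside the -56.1 FPKM (CKO minus WT) of *Hnrnpk*.

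Differences within a replicate number varied more than the group means show. The median over the 10 genes was -0.02 for number 1, -0.14 for number 2 and 0.06 for number 3. Of the 10 genes, 4 differed in the same direction in all 3 numbers, lower in CKO for *Hnrnpa1*, *Hnrnpd* and *Hnrnph1* and higher for *Hnrnpu*. For *Hnrnpa1*, *Hnrnph1* and *Hnrnpu* this follows from groups that did not overlap. CKO replicate 2 was the lowest of 6 libraries for *Hnrnpa0*, *Hnrnpd*, *Hnrnpl* and *Hnrnpm* and the highest for *Hnrnpc* and *Hnrnpf*, and so was at an extreme for 6 of the 10. The coefficient of variation was higher in CKO than in WT for 9 of the 10 genes, and reached 18.6% for *Hnrnpd* in CKO against 2.81% in WT. For none of these counts was the share over all genes computed, so nothing particular to the 10 is read from them. CKO replicate 2 was also the library with the highest globin share, and the part of blood RNA in its extreme values was not tested.

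**Figure D3:**
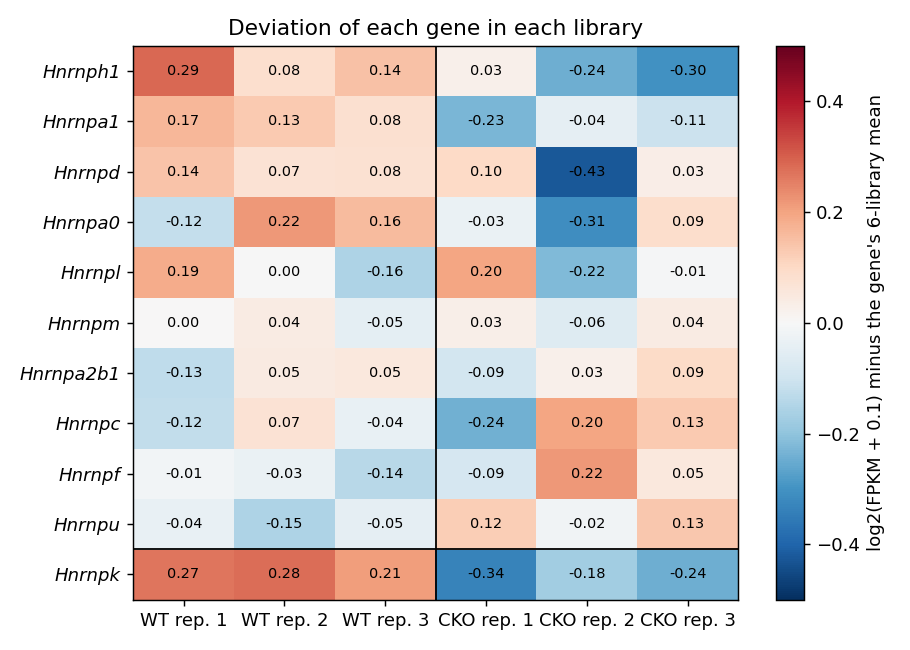
Deviation of each gene in each library from that gene's mean over the 6 libraries, on the log2(FPKM + 0.1) scale, with red above and blue below the mean. *Hnrnph1*, *Hnrnpa1* and *Hnrnpk* turn from red in WT to paler or blue in CKO, and *Hnrnpd* and *Hnrnpa0* are deep blue in CKO replicate 2 alone, at -0.43 and -0.31.

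A further 20 genes of the wider family, including the poly(C)-binding proteins closest to hnRNP K in structure, were read in the same fit. Of these, 7 had a higher and 13 a lower mean in CKO on the log2 scale, with a median difference of -0.03. None passed adjustment in limma without the block, and 3 had an unadjusted p under 0.05 in the lower direction and 0 in the higher (5.46% and 2.84% of all genes). With the block 2 of 20 fell and 0 rose at an adjusted p under 0.05 (1.68% and 1.13% of all genes). WT and CKO did not overlap for 3 of 20 in the lower and 1 of 20 in the higher direction (8.86% and 5.63% of all genes).

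*Hnrnph3*, a relative of *Hnrnpf* and *Hnrnph1*, measured 39.7, 40.3 and 40.1 FPKM in WT and 29.4, 21.7 and 27.9 in CKO. Every CKO library lay below the WT libraries, which were nearly equal. The log2 difference was -0.61 ± 0.14 (SE), with a limma adjusted p of 0.264, or 0.0162 with the block, and the adjusted p was under 0.05 in 3 of 18 alternatives. *Rbmx*, an X-linked gene that encodes hnRNP G, measured 40.5, 45.5 and 46.1 in WT and 33.6, 26.6 and 29.8 in CKO. The groups did not overlap, and the log2 difference was -0.56 ± 0.13 (SE), with an adjusted p of 0.281, or 0.0281 with the block and under 0.05 in 3 of 18 alternatives. *Hnrnpdl*, the close relative of *Hnrnpd*, measured 117, 107 and 107 in WT and 97.7, 67.7 and 79.3 in CKO. It too was lower in every CKO library, by -0.45 ± 0.16 (SE), with an adjusted p of 0.518, or 0.0722 with the block. That adjusted p was under 0.05 in 2 of 18 alternatives, at 0.00694 in replicates 2 and 3 alone and 0.0327 with voom and the block. No exon window of these 3 genes recurs elsewhere in the genome.

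*Syncrip*, which encodes hnRNP Q, was higher in every CKO library, at 34.6 ± 2.76 FPKM against 29.8 ± 1.09 for WT (SD, n = 3 each), with a log2 difference of 0.21 and an adjusted p of 0.685. The poly(C)-binding protein genes *Pcbp1* and *Pcbp2* measured 226 ± 24.6 and 151 ± 5.51 FPKM in WT and 226 ± 34.3 and 164 ± 13.9 in CKO. Their log2 differences were 0.00 (95% interval -0.40 to 0.40) and 0.12 (95% interval -0.19 to 0.43). Within the F and H genes the log2 differences were thus -0.61 for *Hnrnph3*, -0.35 for *Hnrnph1*, 0.06 for *Hnrnph2* and 0.12 for *Hnrnpf*, and whether they differ from one another was not tested.

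**Figure D4:**
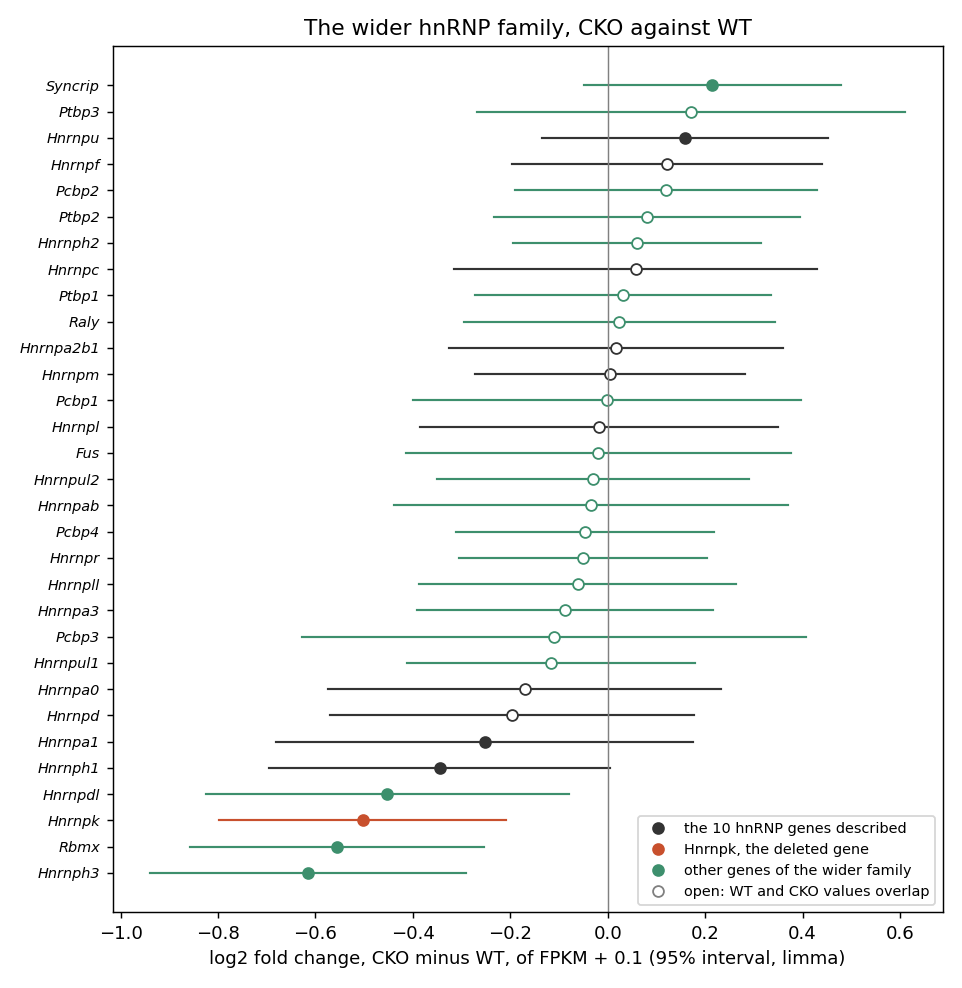
Log2 fold change (CKO minus WT, of FPKM + 0.1) with 95% limma intervals for the 10 hnRNP genes (black), *Hnrnpk* (orange) and 20 further family genes (green), with filled symbols where the 3 CKO and 3 WT values do not overlap. *Hnrnph3*, *Rbmx*, *Hnrnpk* and *Hnrnpdl* have intervals below 0, and no gene has an interval above 0.

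Genes of neighbouring processes gave these counts, to be read against the 5.46% of all genes lower and 2.84% higher at an unadjusted p under 0.05. Among 25 other splicing regulators, 0 passed adjustment in either fit and 1 had an unadjusted p under 0.05, *Khdrbs3*, which encodes a STAR-family splicing factor, at 12.3 ± 0.924 FPKM in WT and 9.55 ± 1.26 in CKO. Their median log2 difference was 0.06, with *Tia1* lowest after *Khdrbs3* at -0.29 and *Mbnl3* and *Mbnl1* highest at 0.29 and 0.23. Among 16 nonsense-mediated decay factors 0 passed and 1 had an unadjusted p under 0.05, *Smg8*, a regulator of the SMG1 kinase, at 0.41 with an adjusted p of 0.553. *Magoh*, an exon junction complex subunit, followed at 0.29, and *Upf3a* and *Smg9* were lowest, both at -0.18. The summed FPKM of these 16 was 491 to 530 in WT and 542 to 579 in CKO. Taken singly, 0 of the 16 separated between genotypes in either direction, and the sum was not tested. *Magoh* contributed to the higher sum, its mean being 108 FPKM over the WT libraries and 136 over the CKO libraries. Its log2 difference ranged from 0.08 to 0.61 with a library left out. The sums of the 25 splicing regulators overlapped, at 1119 to 1186 for WT and 1143 to 1203 for CKO.

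The GENCODE annotation lists transcripts marked for nonsense-mediated decay for 5 of the 10 genes, 4 for *Hnrnpd*, 3 for *Hnrnpu*, 2 each for *Hnrnpa1* and *Hnrnpa2b1* and 1 for *Hnrnpl*, beside 28.1% of the genes tested. *Hnrnph1*, with the largest difference of the 10, has none listed. Reads were counted per gene, so a shift between coding and decay isoforms within a gene was not analysed here.

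Cell type and cell cycle genes also varied between libraries. All 13 erythroid markers tested were higher in CKO by log2 mean, with median log2 differences of -0.30, 1.02 and 0.45 for numbers 1, 2 and 3, a summed FPKM of 38032 to 64273 over the WT and 31048 to 143414 over the CKO libraries, *Hbb-bt* and *Hba-a2* highest at 0.74 and 0.55 and *Epor* and *Klf1* lowest at 0.06 and 0.23. Of 16 limb mesenchyme markers 13 were lower and 3 higher, with *Tbx5*, a forelimb transcription factor gene, lower at 19.5 ± 0.649 FPKM in WT and 10.7 ± 4.13 in CKO (adjusted p = 0.358, or 0.00734 with the block), *Twist2* next at -0.48, and *Pitx1*, a hindlimb gene, and *Msx1* highest at 0.25 and 0.03. All 7 muscle precursor markers tested were higher by log2 mean, with medians of 1.02, 0.19 and 0.31 for the same numbers. *Actc1*, a muscle actin gene, was at 1.05, with overlapping groups, an adjusted p of 0.815, or 0.0266 with the block, and a range of 0.03 to 1.59 with a library left out, beside *Myod1* at 0.68, *Pax3* at 0.34 and *Lbx1* at 0.12. All 8 endothelial markers were lower by log2 mean, with medians of -1.01, 0.10 and -0.07 for numbers 1, 2 and 3, from *Tie1* at -0.54 and *Kdr* at -0.45 to *Emcn* at -0.20 and *Tek* at -0.02, with a summed FPKM of 24.3 to 34.9 in WT and 17.2 to 27.04 in CKO. The part of these differences in the hnRNP values was not tested.

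Ectoderm markers had a summed FPKM of 48.1 to 80.4 in WT and 52.9 to 83.1 in CKO, with 8 of 10 higher by mean, from *Krt15* at 0.46 and *Krt5* at 0.39 to *Wnt7a* and *Epcam*, both at -0.03. Macrophage markers summed to 14.4 to 23.3 in WT and 16.6 to 27.6 in CKO, with 5 of the 6 tested higher by mean, *C1qb* and *C1qc* at 0.35 and 0.33 and *Cx3cr1* and *Csf1r* at -0.10 and 0.05. Of the markers of Schwann precursors and neural crest, *Sox10*, *Erbb3* and *Tubb3* were at 0.33, 0.23 and -0.41. Among 18 proliferation genes 14 were higher and 4 lower by mean and 0 passed in either fit. WT and CKO values did not overlap for 4 of the 18 in the higher and 0 in the lower direction (5.63% and 8.86% of all genes). *Mcm3* and *Mki67* were both at 0.27 and *Ccnb2* and *Tyms* at -0.19 and -0.11. The sums were 1261 to 1294 over WT and 1244 to 1583 over CKO libraries. None of the markers in these lists stood at 0 in all 6 libraries.

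The mean deviation of the 10 genes over the libraries was 0.04, 0.05 and 0.01 in WT and -0.02, -0.09 and 0.02 in CKO on the log2 scale. The genes whose 6 deviations came nearest to this profile, by root mean square difference over the 6 libraries, were *Ap3s2* at 0.0163, *Twf1* at 0.0165, *Phf14* at 0.0211, *Ubxn4* at 0.0212 and *Hars2* at 0.0232. *Ap3s2* for example measured 11.9, 12.0 and 12.0 FPKM in WT and 11.4, 10.9 and 11.9 in CKO, a nearly flat profile with its lowest value in CKO replicate 2.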

How the data were processed

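Messenger RNA of E11.5 limb bud cells was sequenced from a stranded library in 3 WT and 3 CKO samples. Per the labels and the study's methods, the authors trimmed reads, aligned them to mm10, counted them per gene and deposited FPKM. The submitters' processing notes name cutadapt 2.5, HISAT2 2.1.0 and featureCounts 1.6.3, and settings for strand and for reads with several alignments are not given in the sources used here. Whole reads were recovered as FPKM times merged exon length (GENCODE M21, GRCm38, 99.5% of identifiers matched). Within a tolerance of 0.1, 94.1% to 94.8% of low values were whole.

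The log2(FPKM + 0.1) values of the 12305 genes averaging 0.5 FPKM or more over the libraries were fitted with limma 3.58.1 in R 4.3.3 (eBayes with trend), and p-values were adjusted by Benjamini-Hochberg over all of them. Fold changes are on that log2 scale. Same-numbered WT and CKO libraries deviated together, with correlations of 0.64, 0.44 and 0.27, all above the 0.1 set for reading a shared number as a pair. Different-numbered libraries correlated as highly, at 0.49 for WT replicate 2 with CKO replicate 3 and 0.31 for WT replicate 3 with CKO replicate 2. Those that involve replicate 1 were negative, from -0.60 to -0.37. Numbers 2 and 3 were thus not told apart as pairs, and the pairing rests on replicate 1. Results with the block, and differences within a number, are limited to that extent. What the numbers share is not stated in the labels, and nothing says whether replicates were separate litters, so p-values measure the spread between these samples.

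The 10 genes, the wider family and the marker lists were chosen with earlier results of these data known. Named genes were the 10, *Hnrnpk*, family genes, list genes past the threshold with or without the block, the 2 highest and 2 lowest of each list, and the 5 nearest patterns. A gene of the Schwann precursor list is not reported here. Alternatives were another pseudocount or filter, other scalings, no trend, a replicate block, replicates 2 and 3 alone, voom on recovered reads, and each library left out. Exon windows of 100 bases were searched for exact recurrence in the genome on both strands.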

Additional observations from a re-analysis of the deposited data

How the results depend on the processing

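None of the 10 genes passed an adjusted p of 0.05 in limma or in any of the 18 alternatives. The count of all genes called, 8 as reported, was 14 after quantile normalization, 4 after rescaling without globin genes, 346 with the replicate block, 1851 in replicates 2 and 3 alone and 628 with voom and the replicate block. Leaving out 1 library gave 1 to 23 calls: 3 without WT replicate 2, 23 without CKO replicate 1, and 1 each without the third WT, the second CKO or the third CKO library. The number of the 10 genes with an unadjusted p under 0.05, 0 as reported, was 2 after rescaling without globin genes (*Hnrnpa1* and *Hnrnph1*), 1 after quantile normalization (*Hnrnpa1*), 1 (*Hnrnph1*) without the trend, with the replicate block, in replicates 2 and 3 alone and with voom with or without the block, and 0 to 1 with a library left out, the 1 being *Hnrnph1* without CKO replicate 1. The replicate block changed no other call among the 10. For *Hnrnpk* the adjusted p, 0.334 as reported, passed in replicates 2 and 3 alone (0.0377) and with voom and the replicate block (0.0237).

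The median log2 difference of the 10 genes, -0.01 as reported, was -0.12 after quantile normalization and -0.11 after rescaling without globin genes. That rescaling moved the median of all genes from 0.00 to -0.10, and quantile normalization left that median at 0.00. Direction turned only for genes near 0. After quantile normalization *Hnrnpa2b1* was at -0.13, *Hnrnpc* at -0.0395 and *Hnrnpm* at -0.0937, after rescaling without globin genes they were at -0.0899, -0.0498 and -0.103, and *Hnrnpm* was at -0.00883 in replicates 2 and 3 alone. With a library left out *Hnrnpa2b1* ranged from -0.0417 to 0.0681, *Hnrnpc* from -0.0272 to 0.192, *Hnrnpl* from -0.122 to 0.0870 and *Hnrnpm* from -0.0188 to 0.0365. The cause was not tested. Leaving out a library from a group of 3 assumes that the remaining libraries vary like the others.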
